A study of Homo sapiens with 2 samples.

Results

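JUP, DSP and 8 further genes that epithelial cells use for cell junctions, surface protease control and splicing were examined in 2 human leiomyosarcoma cell lines. The full set was JUP, DSP, PKP2, EPCAM, SPINT1, SPINT2, ST14, ESRP1, ESRP2 and GRHL2, chosen by name, and all 10 were found among the 26485 genes of the count table. Leiomyosarcoma is a malignant tumour of smooth muscle lineage. The groups were SK-LMS-1 cells with the solvent DMSO and SK-UT-1 cells with DMSO, at 1 library each, and the labels give no dose, time or genotype for either. The series concerns a SUV39H2 inhibitor and a PARP inhibitor in uterine leiomyosarcoma, and the comparison here is between the lines under solvent alone. No difference has a replicate check, no test between the lines was possible, and every difference describes these libraries only.

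Desmosomes are junctions that tie the intermediate filaments of neighbouring cells together. Their cadherins cross the membrane, the armadillo proteins plakoglobin (JUP) and the plakophilins (such as PKP2) bind the cadherin tails inside the cell, and desmoplakin (DSP) links this plaque to the filaments. EPCAM is a membrane glycoprotein of most simple epithelia. The serine protease matriptase (ST14) works at the epithelial surface and is held in check by the Kunitz-type inhibitors SPINT1 and SPINT2. ESRP1 and ESRP2 are RNA-binding proteins that set the epithelial form of many transcripts, and GRHL2 is a transcription factor that activates epithelial junction genes. In heart muscle, JUP, DSP and PKP2 also build the junctions of the intercalated disc.

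The promoters of JUP, SPINT1 and DSP are shown because these genes carried nearly all of the counts in SK-UT-1. Of the 10 genes, 3 matched the promoter table of RefSeq (GRCh38.p14), and they were these 3. Windows of 250 bases before the RefSeq start were read, and the bases outside the gene as the count table places it are printed 5′ to 3′ on the gene's strand. They lie at chr17:41786713-41786961 on the minus strand for JUP, chr15:40843798-40844047 on the plus strand for SPINT1 and chr6:7541421-7541636 on the plus strand for DSP. Capitals mark matches to CACCTG or its reverse complement CAGGTG, the E-box form bound by repressors of the SNAI and ZEB families, and to AACCGG or its reverse complement CCGGTT, part of the grainyhead motif.
JUP: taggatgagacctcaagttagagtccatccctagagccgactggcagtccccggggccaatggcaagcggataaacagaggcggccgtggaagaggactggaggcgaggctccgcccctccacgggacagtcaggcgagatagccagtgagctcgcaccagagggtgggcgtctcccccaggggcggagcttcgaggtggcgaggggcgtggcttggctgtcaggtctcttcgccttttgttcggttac
SPINT1: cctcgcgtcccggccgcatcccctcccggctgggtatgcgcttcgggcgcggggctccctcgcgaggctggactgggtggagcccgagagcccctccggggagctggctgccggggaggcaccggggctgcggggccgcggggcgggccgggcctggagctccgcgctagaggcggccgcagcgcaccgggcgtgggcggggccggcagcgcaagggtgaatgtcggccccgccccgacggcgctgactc
DSP: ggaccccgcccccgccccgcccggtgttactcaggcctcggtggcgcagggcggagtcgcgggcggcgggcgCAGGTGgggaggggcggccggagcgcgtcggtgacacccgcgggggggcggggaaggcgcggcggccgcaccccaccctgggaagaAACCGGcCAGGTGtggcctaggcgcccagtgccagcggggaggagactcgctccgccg

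The DSP window held 2 E-box matches, which began 178 and 85 bases before the start, and 1 grainyhead match, 92 bases before the start. None of these matches overlapped another. The JUP and SPINT1 windows held neither motif. At the second RefSeq start of each gene, the window of JUP held 2 E-box matches and that of SPINT1 held 1. Over 35116 RefSeq windows of the same length, 17.5% held the E-box letters and 5.99% the grainyhead letters on either strand. CG dinucleotides numbered 35 in the SPINT1 window, 33 in DSP and 17 in JUP, beside a median of 11 over all windows. The GC content was 80.4% for SPINT1, 78% for DSP and 63.6% for JUP, beside a median of 58%. A match describes these letters in this window only.

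Most of the 10 genes were at or near 0 in both lines, and JUP, SPINT1 and DSP made nearly all of the signal in SK-UT-1. SK-LMS-1 held 43 counts over the 10 genes and SK-UT-1 held 531, from library totals of 6906280 and 7635850. Levels are given as CPM, the count relative to a library size that was scaled by TMM (a trimmed mean over the gene ratios of the libraries), with an exact 95% Poisson interval for counting error. Where a pair of values names no line, SK-LMS-1 comes first. The summed level was 6.56 CPM (4.75 to 8.84) in SK-LMS-1 and 66.0 CPM (60.5 to 71.8) in SK-UT-1. PKP2 made up 60.5% of the counts of the 10 genes in SK-LMS-1. JUP made up 52.5% in SK-UT-1, SPINT1 24.9% and DSP 18.5%, together 95.9%. In SK-LMS-1, 4 genes had 0 counts, 5 had 1 to 9 and 1 had 10 or more, against 2, 5 and 3 genes in SK-UT-1. In bulk RNA of this kind, fewer expressing cells and less RNA per cell cannot be told apart.

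**Figure D1:**
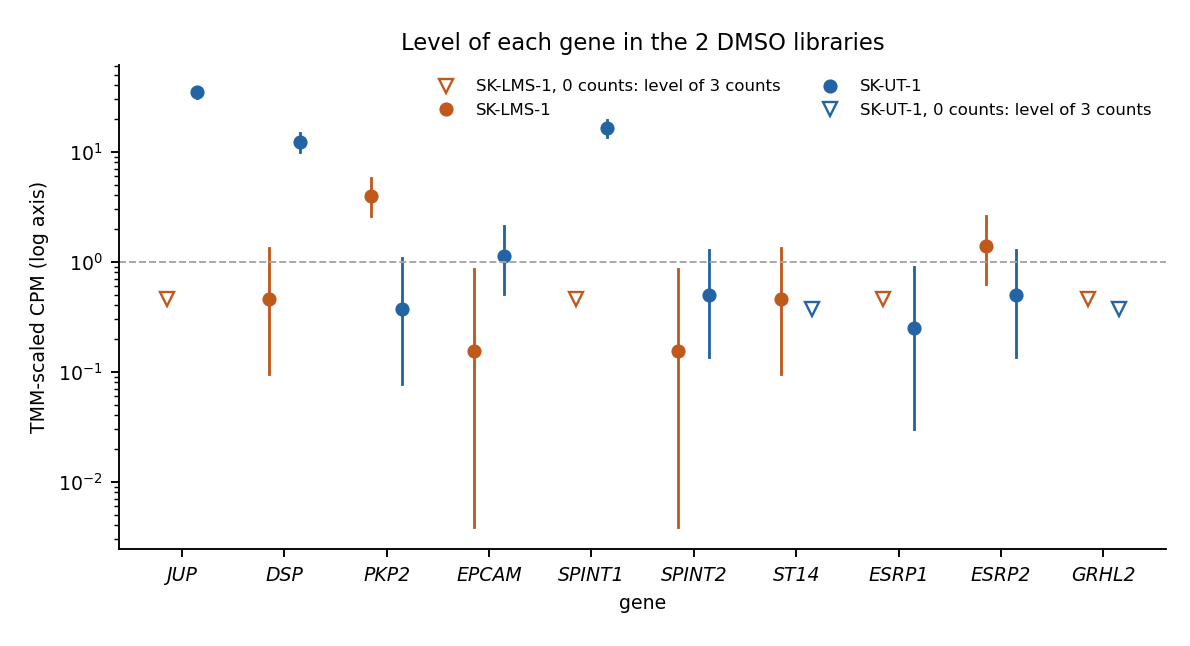
TMM-scaled CPM (log axis) of each of the 10 genes in SK-LMS-1 (orange) and SK-UT-1 (blue), 1 library each, with exact 95% Poisson intervals as bars. Open triangles mark libraries with 0 counts, drawn at the level of 3 counts, and the dashed line is the minimum of 1 CPM. JUP, DSP and SPINT1 stand above 10 CPM in SK-UT-1, PKP2 is highest in SK-LMS-1, and the other 6 genes lie below 2 CPM in both.

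Genes that reached 1 CPM in either library were taken as measured, and as different where the lines differed at least 2-fold, with counts below 3 raised to 3. By this rule, 4 of the 10 genes were higher in SK-UT-1 (JUP, DSP, EPCAM and SPINT1), 2 were higher in SK-LMS-1 (PKP2 and ESRP2) and 4 were not measured. All 6 measured genes of the set reached 1 CPM only in the line where they were then higher, so the filter favoured a call. Of all 14324 measured genes, a base that leaves out genes not measured, 18.3% were past 2-fold towards SK-UT-1 and 21.9% towards SK-LMS-1. With the whole 95% interval of the ratio required to lie beyond 2-fold, 3 genes remained in SK-UT-1 (JUP, DSP and SPINT1), beside 10.1% of measured genes. PKP2 was the 1 gene that remained in SK-LMS-1, beside 15.1%. Passing the 2-fold rule was more frequent among low genes. It held for 32.3% of genes at 1 to 5 CPM towards SK-LMS-1 and 35.4% towards SK-UT-1, the range of PKP2, EPCAM and ESRP2. For genes at 5 to 20 CPM, the range of DSP and SPINT1, the shares were 23.2% and 22.2%, and at 20 to 100 CPM, the range of JUP, they were 18.2% and 13.2%.

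**Figure D2:**
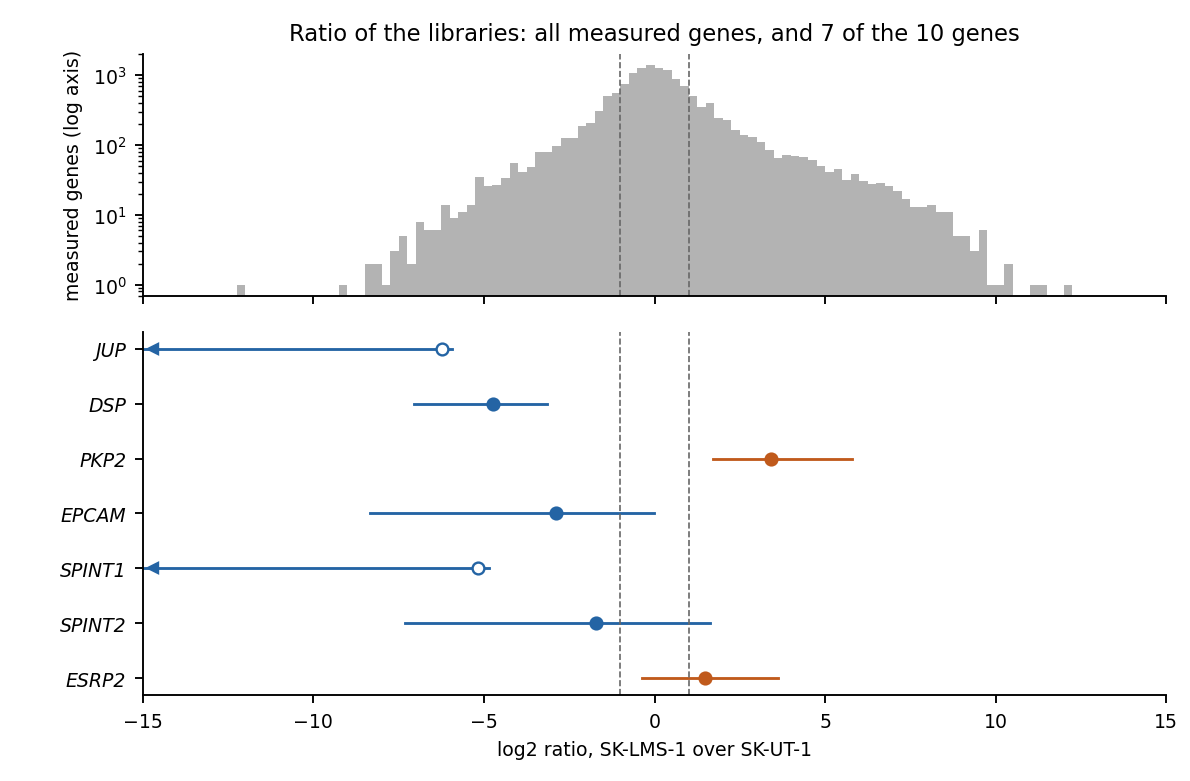
Top, number of measured genes (log axis) by log2 ratio of SK-LMS-1 over SK-UT-1, with counts below 3 raised to 3. Bottom, the ratio of the 7 genes that allow a fold, without the floor where a count is 1 to 3, with exact 95% intervals as bars. Open circles are ratios against a floor of 3 counts, arrows mark intervals with no outer limit and dashed lines mark 2-fold. JUP, DSP, SPINT1 and PKP2 have intervals wholly outside the dashed lines, while those of EPCAM, SPINT2 and ESRP2 reach inside them.

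JUP, plakoglobin, was the most abundant of the 10 genes and was seen in 1 line. It had 0 counts in SK-LMS-1 against 279 in SK-UT-1, where its level was 34.7 CPM (30.7 to 39.0). Its 0 counts in SK-LMS-1 were set to a floor of 3 counts, 0.458 CPM, where the exact interval allows up to 0.563 CPM. Against that floor, in SK-UT-1 JUP was at least 75.7-fold higher, with a lower 95% limit of 61.2. Among measured genes, 37 had a larger ratio towards SK-UT-1. Of the 475 measured genes at 0 in SK-LMS-1, JUP was 1 of 21 with a level in SK-UT-1 at least as high as its own. Per kilobase of exon, JUP stood at 9.88 CPM in SK-UT-1, above 58.7% of measured genes. JUP lies at chr17:41754607-41786712 on the minus strand (hg38).

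CTNNB1, beta-catenin and the closest relative of plakoglobin, was at nearly the same level in both lines, 281 CPM in SK-LMS-1 against 250.2 CPM in SK-UT-1. JUP was 12.8% of the summed level per length of the pair in SK-UT-1. It was 0 of 1839 counts of the pair in SK-LMS-1, where the exact interval allows a share of up to 0.200% of these counts. In the armadillo family as a whole, 11 of 12 listed genes were measured, of which 2 were higher in SK-LMS-1, 4 higher in SK-UT-1 and 5 less than 2-fold apart, with a median log2 ratio of 0.17. The median over all measured genes was 0.01. CTNND2, delta-catenin, went the opposite way to JUP, with 176 counts in SK-LMS-1 against 2 in SK-UT-1, a 108-fold ratio (29.5 to 899.5). ARVCF, a catenin of the adherens junction, was at 4.12 CPM in SK-LMS-1 against 8.70 CPM in SK-UT-1, 2.11-fold higher there (1.34 to 3.42).

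DSP, the plakin that anchors the desmosome to filaments, was also higher in SK-UT-1. It had 3 counts in SK-LMS-1, 0.458 CPM (0.0944 to 1.34), and 98 in SK-UT-1, 12.2 CPM (9.89 to 14.8). The intervals did not overlap, and the ratio was 26.6-fold (8.84 to 131). DSP was a small part of its family all the same, at 0.0269% of the plakin level per length in SK-LMS-1 against 0.973% in SK-UT-1. The broadly expressed plakins DST, MACF1 and PLEC held most of that level in both lines. Of 7 listed plakins 6 were measured, 0 higher in SK-LMS-1, 2 higher in SK-UT-1 and 4 less than 2-fold apart, with a median log2 ratio of -0.44. That median turned to 0.64 where 10 counts were required in both libraries. The second plakin past 2-fold was EPPK1, epiplakin, with 3 counts in SK-LMS-1 against 74 in SK-UT-1, a 20.1-fold ratio (6.61 to 99.6). DSP lies at chr6:7541637-7586713 on the plus strand.

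PKP2, a plakophilin of the desmosomal plaque, went the other way from JUP and DSP. It had 26 counts in SK-LMS-1, 3.97 CPM (2.59 to 5.81), and 3 in SK-UT-1, 0.373 CPM (0.0769 to 1.09). These intervals did not overlap, and PKP2 was 10.6-fold more abundant in SK-LMS-1 (3.26 to 55.0). Towards SK-LMS-1, 808 measured genes had a larger ratio. PKP4, a more widely expressed relative, held 97.0% of the plakophilin level per length in SK-LMS-1 against 97.1% in SK-UT-1, and PKP2 held 1.99% and 0.236%. PKP3 had 6 counts in SK-LMS-1 against 20 in SK-UT-1, and PKP1 had 6 and 4. PKP2 lies at chr12:32790746-32896846 on the minus strand.

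The desmosome list did not move as 1 block. Of its 14 genes 7 were measured, 3 higher in each line and 1 less than 2-fold apart, with a median log2 ratio of 0.34. Requiring 10 counts in both libraries left DSG2, PERP and PKP4 and gave a median of 3.77. DSG2, a desmosomal cadherin of many tissues, was at 62.9 CPM in SK-LMS-1 against 2.36 CPM in SK-UT-1, 26.6-fold more in the former (16.8 to 44.7). PERP, a membrane protein of desmosomes, was at 378 and 27.7 CPM, 13.7-fold higher in SK-LMS-1 (11.9 to 15.7). Of the 7 desmosomal cadherins, 4 had 0 counts in both lines, DSC2 among them.

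In a grouping by role made after the values were seen, the 7 cadherins summed to 11.3 CPM per kilobase in SK-LMS-1 against 0.434 in SK-UT-1, nearly all of it DSG2. The plaque proteins JUP, PKP1, PKP2 and PKP3 summed to 1.37 CPM per kilobase in SK-LMS-1 against 10.9 in SK-UT-1, most of it JUP. With PKP4, which belongs to the same list and stood at 43.6 and 34.5, these sums were nearly equal at 45.0 and 45.4. DSP stood at 0.0471 and 1.25 CPM per kilobase.

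**Figure D3:**
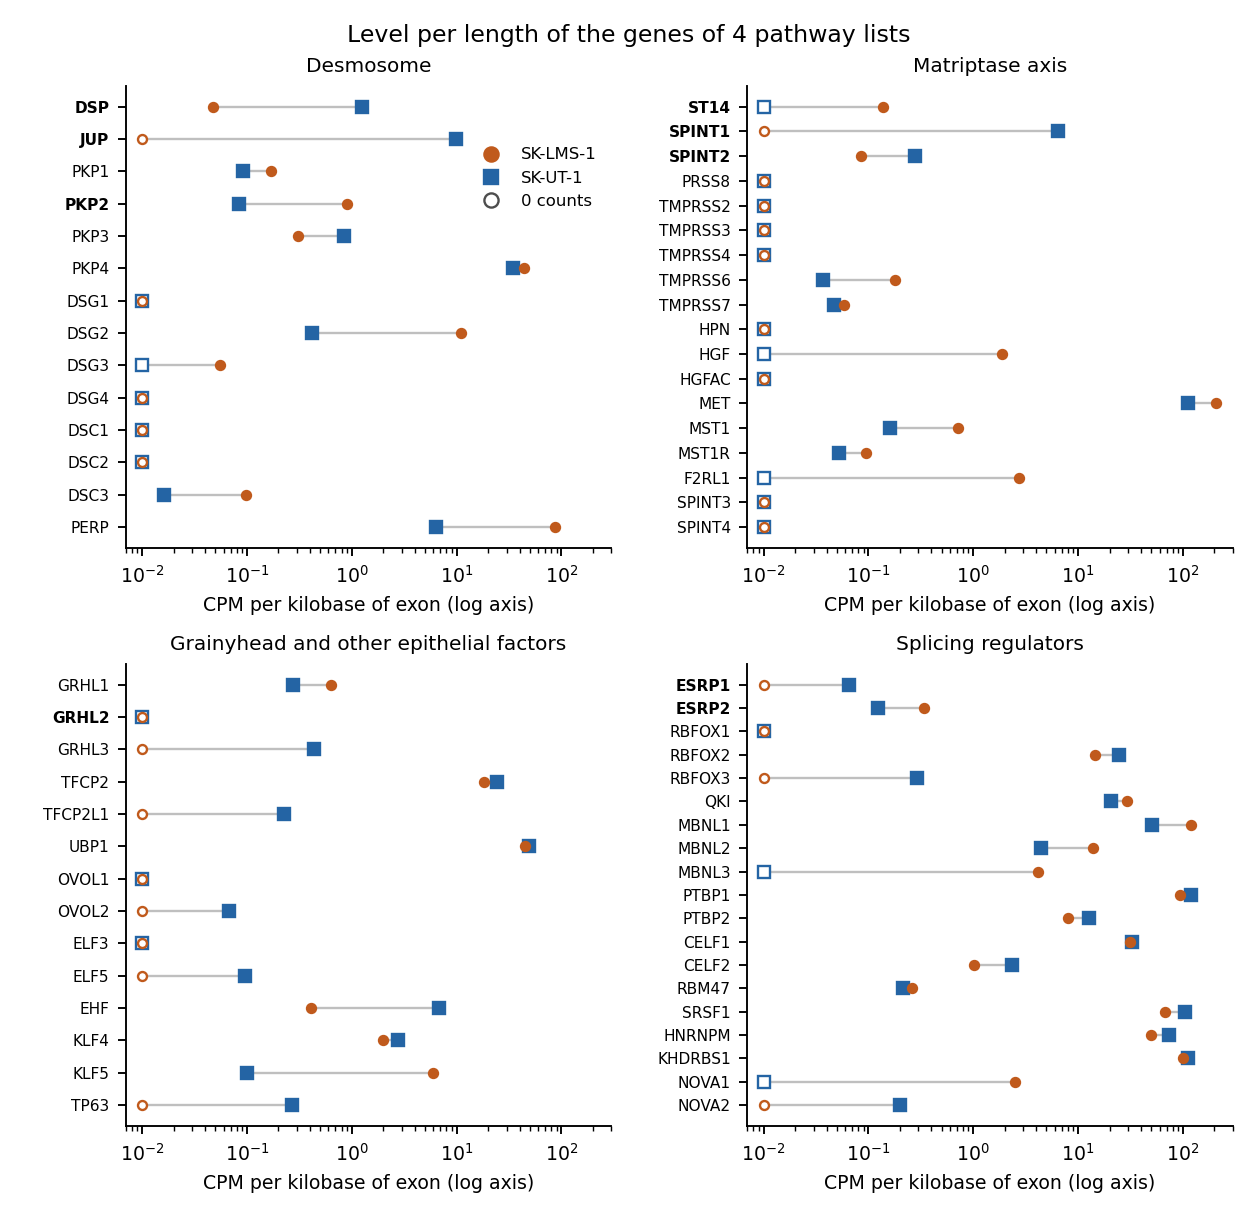
CPM per kilobase of exon (log axis) in SK-LMS-1 (orange circles) and SK-UT-1 (blue squares) for the genes of 4 lists, with 9 of the 10 genes in bold and a grey line joining the lines. Open symbols at the left edge are libraries with 0 counts. DSG2 and PERP lie to the right in SK-LMS-1 while JUP and DSP do so in SK-UT-1, and most genes of the matriptase list are at or near 0 in both.

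Cadherins and linkers of other junctions were mixed as well. Of 15 adherens junction genes 11 were measured, 3 higher in SK-LMS-1, 2 higher in SK-UT-1 and 6 less than 2-fold apart, with a median log2 ratio of -0.10. CDH1, the epithelial cadherin that JUP also binds, had 0 counts in SK-LMS-1 against 4 in SK-UT-1. CDH2, the cadherin of neural and mesenchymal cells, was at 704 CPM in SK-LMS-1 against 15.8 CPM in SK-UT-1, 44.6-fold more in the former (37.4 to 53.7). Afadin, listed as MLLT4, links nectins to actin and was 7.15-fold more abundant in SK-LMS-1 (6.26 to 8.19).

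Of 17 tight junction genes 13 were measured, 7 higher in SK-LMS-1, 4 higher in SK-UT-1 and 2 less than 2-fold apart. The median log2 ratio of 1.06 was 0.30 without the filter on level. That 0.30 is the value set by the floor for genes at or below 3 counts in both lines. The claudin CLDN11 was 6.36-fold more abundant in SK-LMS-1 (5.45 to 7.45). F11R, a junctional adhesion molecule, was 5.10-fold more abundant in SK-UT-1 (2.94 to 9.48) and OCLN, occludin, 3.42-fold (2.28 to 5.28). Apical polarity genes were split in the same manner, with 4 of 11 measured genes higher in SK-LMS-1, 3 higher in SK-UT-1 and 4 less than 2-fold apart (median -0.12). The largest ratio there was that of PRKCZ, an atypical protein kinase C, with 1 count in SK-LMS-1 against 268 in SK-UT-1, a 218-fold ratio (38.8 to 8649.5). Its partner PARD6G had 4 and 78 counts, 15.9-fold higher in SK-UT-1 (5.96 to 59.7). PARD3 and PARD6B of the same complex were 2.95-fold (2.57 to 3.40) and 2.13-fold (1.48 to 3.09) more abundant in SK-LMS-1.

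EPCAM was low in both lines. It had 1 count in SK-LMS-1, 0.153 CPM (0.00386 to 0.850), and 9 in SK-UT-1, 1.12 CPM (0.511 to 2.12). The intervals overlapped, and the ratio of 7.33-fold towards SK-UT-1 had an interval from 1.02 to 321. Over 7 genes of EPCAM and its relatives and partners, 5 were measured, 2 higher in each line and 1 less than 2-fold apart, with a median log2 ratio of 0.00. CD44, a hyaluronan receptor found in complexes with EPCAM, was at 2567 and 412 CPM, 6.22-fold higher in SK-LMS-1 (6.00 to 6.46). EPCAM lies at chr2:47369148-47387028 on the plus strand.

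SPINT1, the matriptase inhibitor also known as HAI-1, was counted in SK-UT-1 alone, where its protease had 0 counts. It had 0 counts in SK-LMS-1 against 132 in SK-UT-1, 16.4 CPM (13.7 to 19.4), at least 35.8-fold higher there (lower 95% limit 28.7). Among the genes at 0 in SK-LMS-1, SPINT1 was 1 of 44 with a level in SK-UT-1 at least as high as its own. Per kilobase it stood at 6.51 CPM, above 48.7% of measured genes. SPINT2 (HAI-2) had 1 count in SK-LMS-1, 0.153 CPM, and 4 in SK-UT-1, 0.497 CPM (0.135 to 1.27). Its 3.26-fold ratio had an interval from 0.322 to 160.4, so no difference was detectable at this depth. SPINT1 held 95.9% and SPINT2 4.06% of the level per length of the SPINT family in SK-UT-1, on 136 counts.

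ST14, matriptase itself, had 3 counts in SK-LMS-1, 0.458 CPM, and 0 in SK-UT-1, where 3 counts would be 0.373 CPM. No fold is given, since both libraries were at or below 3 counts. SPINT1 lies at chr15:40844048-40857655, SPINT2 at chr19:38264458-38292614 and ST14 at chr11:130159787-130210362, all on the plus strand.

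Most genes of the matriptase axis were not measured. Of 18 listed genes, SPINT1, SPINT2 and ST14 included, 5 reached 1 CPM, 3 higher in SK-LMS-1, 1 higher in SK-UT-1 (SPINT1) and 1 within 2-fold, and 8 had 0 counts in both lines. The median log2 ratio of 2.17 was 0.50 without the filter on level. PRSS8, prostasin, a protease in the same cascade, was among those at 0 in both lines. HGF, whose precursor matriptase can cleave, had 53 counts in SK-LMS-1 against 0 in SK-UT-1, and was at least 21.7-fold higher in the former (lower 95% limit 17.0). F2RL1, the protease-activated receptor PAR2, had 52 and 0 counts, at least 21.3-fold (lower 95% limit 16.7). MET, the HGF receptor, was within 2-fold at 1374 and 750.5 CPM. SK-LMS-1 thus had counts of the ligand and of the receptor and 0 of SPINT1, and SK-UT-1 had counts of the receptor and of SPINT1 and 0 of HGF.

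Both ESRP genes were close to the limit of detection. ESRP1 had 0 counts in SK-LMS-1 against 2 in SK-UT-1, 0.248 CPM, and no fold is given. ESRP2 had 9 counts in SK-LMS-1, 1.37 CPM (0.628 to 2.61), and 4 in SK-UT-1, 0.497 CPM (0.135 to 1.27). The intervals overlapped, and the 2.76-fold ratio towards SK-LMS-1 had an interval from 0.771 to 12.3. ESRP2 shares 713 exon bases, 17.7% of its length, with NFATC3 on the opposite strand, which had 456 and 1269 counts. The counting used strand, and the part of NFATC3 in the ESRP2 counts was not tested. ESRP1 lies at chr8:94641136-94707466 on the plus strand and ESRP2 at chr16:68228547-68236233 on the minus strand.

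Other splicing regulators linked to the switch between epithelial and mesenchymal forms were abundant. Beside the ESRP genes 17 were listed and 14 measured, 4 higher in SK-LMS-1, 1 higher in SK-UT-1 and 9 less than 2-fold apart. The median log2 ratio of the list, ESRP2 included, was -0.05. RBFOX2 was at 206 CPM in SK-LMS-1 against 355 CPM in SK-UT-1, and QKI at 482 and 335 CPM. Both promote mesenchymal exon choices and were within 2-fold. MBNL3, a muscleblind-like factor, had 324 counts in SK-LMS-1 against 0 in SK-UT-1, and was at least 133-fold higher in the former (lower 95% limit 107). NOVA1, best known from neurons, had 70 and 0 counts, at least 28.7-fold (lower 95% limit 22.7). CELF2 was 2.33-fold more abundant in SK-UT-1 (1.75 to 3.14).

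Genes with exons known to depend on the ESRP proteins were mostly expressed in both lines. All 18 were measured, FGFR2 through SK-UT-1 alone (0 and 15 counts), 3 higher in each line and 12 less than 2-fold apart, with a median log2 ratio of 0.29. ENAH, an actin regulator, was 2.72-fold more abundant in SK-UT-1 (2.52 to 2.94). RALGPS2, an activator of Ral, was 2.95-fold more abundant in SK-LMS-1 (2.51 to 3.47). The counts are summed per gene, so which of their exons were used was not measured.

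GRHL2 had 0 counts in both lines, where the exact interval allows up to 0.563 CPM in SK-LMS-1 against 0.458 CPM in SK-UT-1. Its relatives were low too, with 15 and 8 counts for GRHL1 and 0 and 12 for GRHL3. Of 14 grainyhead and other epithelial transcription factor genes 9 were measured, 2 higher in SK-LMS-1, 4 higher in SK-UT-1 and 3 less than 2-fold apart, with a median log2 ratio of -0.48. EHF, an ETS factor of epithelia, was at 2.29 CPM in SK-LMS-1 against 38.0 CPM in SK-UT-1, 16.6-fold higher there (9.91 to 30.0). KLF5, a Kruppel-like factor, had 145 counts in SK-LMS-1 against 3 in SK-UT-1, a 59.4-fold ratio towards SK-LMS-1 (19.9 to 291). GRHL2 lies at chr8:101492440-101669724 on the plus strand.

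Repressors of epithelial genes were expressed in both lines. Of 10 listed genes 8 were measured, 1 higher in SK-LMS-1, 3 higher in SK-UT-1 and 4 less than 2-fold apart. The median log2 ratio of -0.21 was 0.30 without the filter on level. That 0.30 is the value set by the floor for genes at or below 3 counts in both lines, here SNAI1 and SNAI3. ZEB1, which binds the E-box letters above, was at 169 and 276 CPM, within 2-fold. ZEB2 had 477 counts in SK-LMS-1 against 3 in SK-UT-1, a 195-fold ratio (66.4 to 950.4). SNAI2 and TWIST1 differed towards SK-UT-1, by 2.20-fold (1.96 to 2.46) and 14.0-fold (10.9 to 18.4). The part of any of these repressors in the levels of the 10 genes was not tested.

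**Figure D4:**
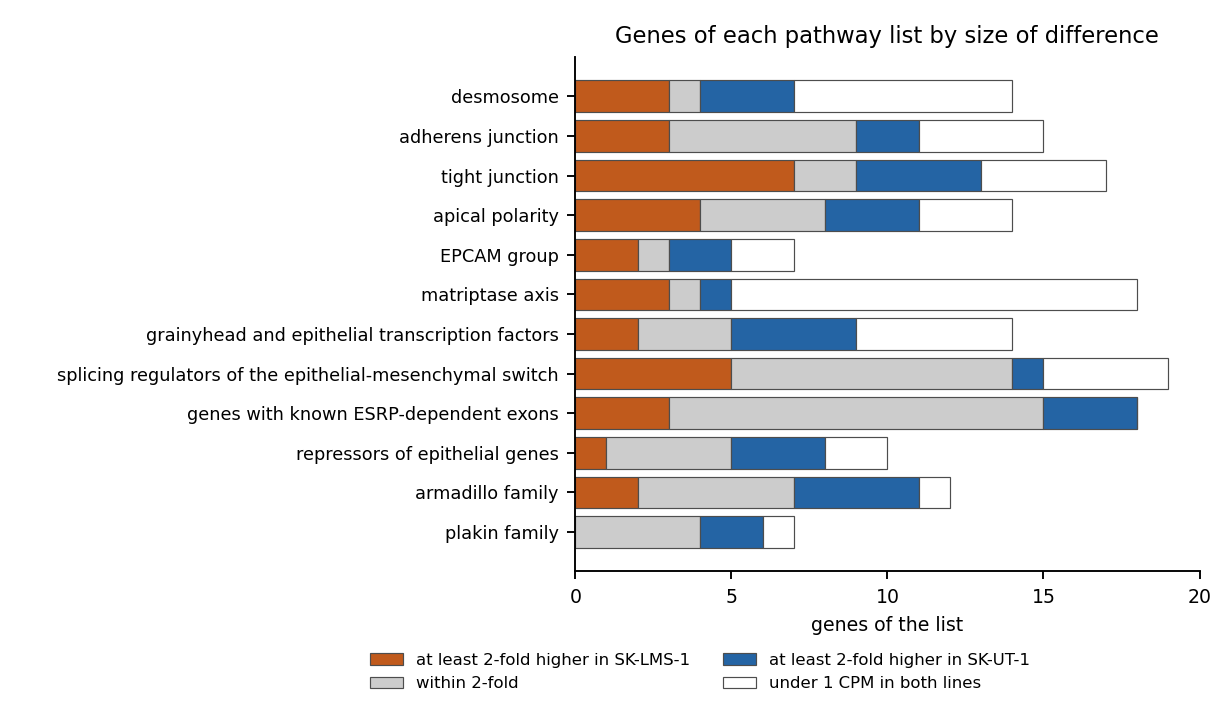
Number of genes in each of the 12 pathway lists that were past 2-fold towards SK-LMS-1 (orange), within 2-fold (grey), past 2-fold towards SK-UT-1 (blue) or under 1 CPM in both lines (white). The lists contain the 10 genes where they belong. All lists but the plakin family hold genes of both directions, and the matriptase list has 13 of 18 genes under 1 CPM.

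Genes beside the 6 measured genes were compared to see whether a whole stretch of chromosome shared the ratio. Of the 5 nearest measured genes on either side of each, 60 in all, 13 (21.7%) were past 2-fold in the direction of their gene, beside 18.3% and 21.9% of all measured genes in the 2 directions. Within 1 megabase the number was 29 of 147 (19.7%). Around JUP, 4 of the 10 nearest genes were higher in SK-UT-1 and 1 higher in SK-LMS-1, with 5 within 2-fold. Within 1 megabase of JUP, 16 of 38 genes were higher in SK-UT-1, beside 18.3% of all measured genes, and 2 were higher in SK-LMS-1. The median log2 ratio was -0.80 there and -0.86 over the 10 nearest genes, beside 0.01 over all measured genes. The lowest log2 ratio within 1 megabase was -2.48, beside -6.24 for JUP. The flanking genes were HAP1, with 0 counts in SK-LMS-1 against 18 in SK-UT-1, and P3H4, with 46 and 184.

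Around SPINT1, 2 of the 10 nearest genes were higher in SK-UT-1 and 8 were within 2-fold, with ZFYVE19 at 16.2 and 35.5 CPM and VPS18 at 51.6 and 46.0 CPM on its flanks. Around DSP, 1 of 10 was higher in SK-UT-1, 2 higher in SK-LMS-1 and 7 within 2-fold. SNRNP48 next to DSP was at 65.0 and 146 CPM and RIOK1 at 46.2 and 74.5 CPM. Around PKP2, 6 of 10 were higher in SK-LMS-1 and 4 within 2-fold, but 4 of the 6 (ALG10B, CPNE8, KIF21A and SLC2A13) lay 5420 to 6858 kilobases away. Within 1 megabase 2 of 5 were higher in SK-LMS-1 and the median log2 ratio was -0.69. The flanking YARS2 was at 16.5 and 32.9 CPM, the opposite direction. ALG10 on its other side, 1125 kilobases away, was at 23.5 and 11.9 CPM. Around EPCAM, 0 of 10 shared its direction, and CALM2 on 1 flank was at 2597 and 2145 CPM. Around ESRP2, 0 of 10 shared its direction and 6 were higher in SK-UT-1, among them PLA2G15 with 33 and 86 counts. Within 1 megabase of JUP, DSP, SPINT1, PKP2 and EPCAM, no other measured gene had a log2 ratio as large in that gene's direction. ESRP2 was the exception, with a log2 ratio of 1.47 beside 2.01 for PARD6A, which had 23 and 7 counts.

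**Figure D5:**
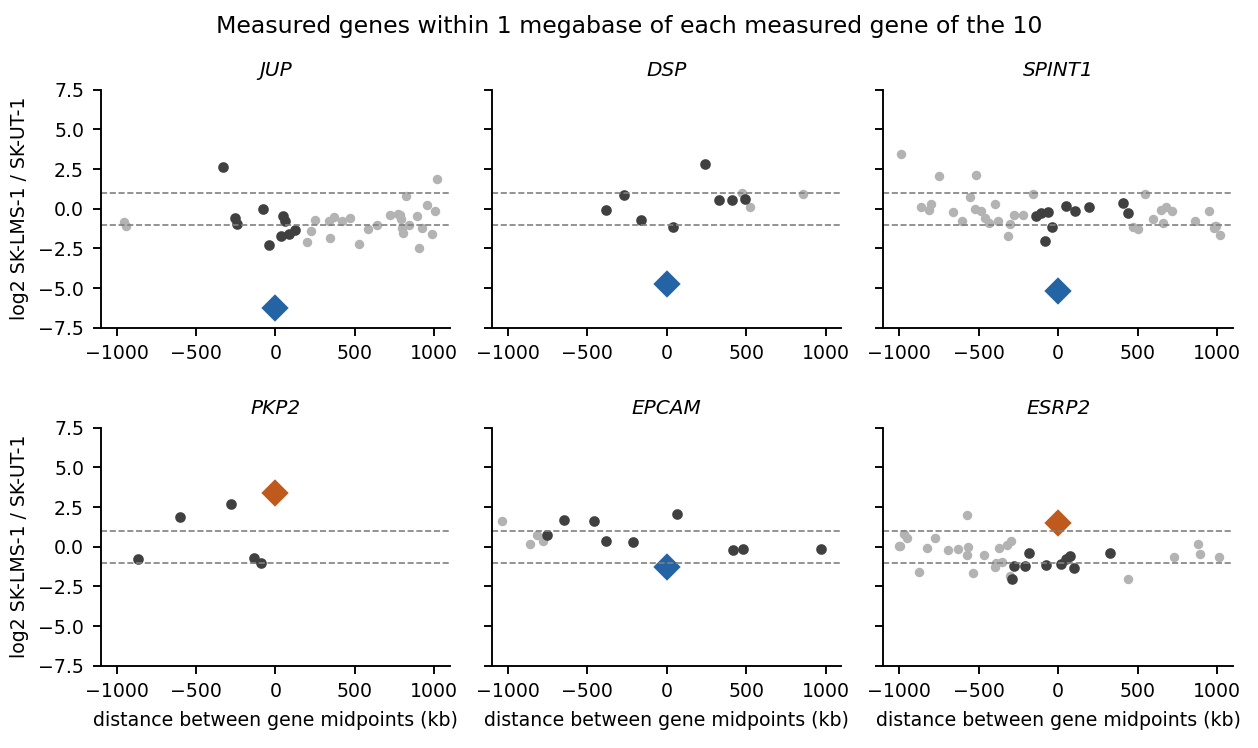
Log2 ratio of SK-LMS-1 over SK-UT-1 for measured genes by distance between gene midpoints (kb), around 6 of the 10 genes. Diamonds are the gene itself, orange where it was higher in SK-LMS-1 and blue where it was higher in SK-UT-1. Dark points are among the 5 nearest genes on either side, grey points are the others within 1 megabase, and dashed lines mark 2-fold. The diamonds of JUP, DSP and SPINT1 lie below all other points of their panels.

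Markers of the labelled lineage were present in part. Of 12 smooth muscle genes 10 were measured, 5 higher in SK-LMS-1, 3 higher in SK-UT-1 and 2 less than 2-fold apart, with summed levels of 1110.4 and 564 CPM. CALD1, caldesmon, led at 749 and 343 CPM. MYOCD, the coactivator that drives smooth muscle genes, had 0 counts in both lines, and DES, desmin, had 1 and 26. Of 18 epithelial markers, 10 had 0 counts in SK-LMS-1 against 5 in SK-UT-1, and 10 were measured, 4 higher in each line and 2 less than 2-fold apart. Their median log2 ratio was -0.47, while their sum of 183 against 58.4 CPM was carried in SK-LMS-1 by KRT7 at 78.6 CPM and KRT18 at 73.3 CPM. KRT7, a keratin of simple epithelia, led this list with 515 counts in SK-LMS-1 against 3 in SK-UT-1. EPCAM, ESRP1 and GRHL2 belong to this list as well.

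Markers of other cell types were mostly at or near 0. Of 10 leukocyte markers 5 had 0 counts in both lines, PTPRC (CD45) among them, and the sums of 92.5 and 15.9 CPM were nearly all CD68, a lysosomal protein gene. Of 8 endothelial markers 3 had 0 counts in both lines (VWF, KDR and TEK), with sums of 1.98 and 35.3 CPM, the latter nearly all EMCN, endomucin, at 33.7 CPM. Of 8 heart muscle markers 5 had 0 counts in both lines (MYH6, MYH7, TNNT2, NPPA and MYL7), with sums of 0.916 and 7.45 CPM, led by NKX2-5 with 2 and 42 counts. Of the 3 measured endothelial markers, 2 were higher in SK-UT-1 and 1 in SK-LMS-1 (PECAM1, with 8 and 0 counts). The 2 measured heart muscle markers were higher in SK-UT-1. Of all measured genes, 18.3% were past 2-fold towards SK-UT-1 and 21.9% towards SK-LMS-1. EMCN and NKX2-5 thus differed in the same direction as JUP, DSP and SPINT1, and PECAM1 in the other. The part of these markers in the differences of the 10 genes was not tested.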

How the data were processed

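The authors deposited raw counts per gene, made with featureCounts 2.0.1 on hg38 over exons with strand setting 1, per the file headers. The libraries came from total RNA with a stranded SMARTer kit, per the labels' protocols. No aligner is named: not given in the sources used here. Another 2 count columns carry names of neither sample and were left unused. The table's gene coordinates and exon lengths are the authors'.

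From the counts, edgeR 4.0.16 (R 4.3.3) gave TMM factors of 0.949 for SK-LMS-1 against 1.05 for SK-UT-1, and CPM. Exact 95% Poisson intervals and exact conditional binomial (Clopper-Pearson) intervals of ratios came from scipy 1.17.1. They cover counting error only, and PCR copies were not marked with molecular identifiers, so fragments need not be independent molecules. At 1 CPM a gene has 6.55 counts in SK-LMS-1 against 8.05 in SK-UT-1. A fold against 0 counts was taken against a floor of 3 counts and written with at least, and a fold against 1 to 3 counts is the ratio itself with its interval. With 1 library per line no test was made, and with 2 libraries no likeness between patterns was computed. The 10 genes and the lists (12 of pathways and 5 of cell types) were chosen with earlier results of these data known. Of the listed symbols 7 were matched through older names in RefSeq. Named were the 10 genes, up to 2 genes per direction and list with the largest ratios at 5 CPM or more, the highest marker of each cell type and the flanking measured genes, not all of which are reported. Other relatives, partners and markers were named after their values were seen. The computation was checked on simulated counts. Alternatives were scaling by library totals, by size factors of DESeq2 1.42.0 and by the upper quartile, fold rules, filters on level and a floor of 1 count.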

Additional observations from a re-analysis of the deposited data

How the results depend on the processing

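Every ratio of the 7 genes that allow a fold kept its direction under the other scalings and the floor of 1 count (28 of 28 values). That outcome was fixed in advance and is no check of the directions. Each scaling moved all log2 ratios alike, by -0.15 at most, and the lower floor moved ratios only further from 0. SPINT2, which is not measured, stood at -0.12 on the log2 scale with its 1 count raised to 3. With the floor of 1 count it was at -1.70, which is the 3.26-fold ratio given above and past 2-fold. EPCAM went from -1.29 to -2.87 in the same way, the latter being its 7.33-fold ratio. All but SPINT2 kept their side of 2-fold. Counts followed the filters. Of the 10 genes, those higher in SK-LMS-1 went from 2 to 1 at 4-fold and with the whole interval beyond 2-fold, to 0 with a minimum of 5 CPM and to 0 with 10 counts required in both libraries. Those higher in SK-UT-1 went from 4 to 3, without EPCAM, at 4-fold, with the whole interval beyond 2-fold and with a minimum of 5 CPM. They went to 0 with 10 counts in both libraries, since none of the 10 genes has 10 counts in both. Of the other pathway genes, those higher in SK-LMS-1 went from 30 to 18 at 4-fold and to 18 with 10 counts in both. Those higher in SK-UT-1 went from 24 to 11 at 4-fold, 15 with the whole interval, 15 at 5 CPM and 11 with 10 counts in both. These are numbers of genes without a share, and the numbers over all measured genes follow with their shares. Over all 14324 measured genes, 3140 (21.9%) were higher in SK-LMS-1 against 2618 (18.3%) in SK-UT-1. This balance turned with library totals (2815 against 3122) and upper quartile scaling (2855 against 3072). At 4-fold with TMM the counts were 1639 (11.4%) and 1046 (7.30%). With 10 counts in both they were 1766 (15.4%) and 1388 (12.1%) of 11458 genes. Towards SK-UT-1 they were 1447 (10.1%) with the whole interval and 1720 (14.6%) of 11784 genes at 5 CPM. The share of DSP among plakins in SK-UT-1 was 0.973% per length and 0.471% of counts. Without a filter on level, genes at or below 3 counts in both lines take a log2 ratio of 0.30. Against TMM, library totals moved all log2 ratios by -0.15 and upper quartile scaling by -0.13. Depth limits SPINT2, ST14, ESRP1, ESRP2, EPCAM and GRHL2, each with 9 counts or fewer in both libraries. No paired analysis was possible because each line has 1 library and the labels give no replicate numbers.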
